A study of Mus musculus with 10 samples.

Results

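The genes described here were 10 hormones and markers of enteroendocrine cells, the hormone-secreting cells of the gut epithelium, in colon intestinal epithelial cells (IECs) of mice. They were taken by symbol from a table of 55487 genes, and all 10 were found: Chga, Chgb, Neurod1, Gcg, Pyy, Sct, Insl5, Tph1, Cck and Sst. RNA of IECs was sequenced in 5 libraries from wild type (WT) mice and 5 from mice homozygous for a knockout of RhoB, written RhoB-/-, all on the C57BL/6J strain, to see how gene expression in the epithelium differed with loss of this small GTPase. Levels were given as TPM, which sets each transcript as a share of its library after scaling by transcript length, so levels can be compared between genes but the number of reads behind a value is unknown. The methods give 6 to 8 weeks as the usual age of the mice, describe the WT animals as purchased males and the RhoB-/- line as made at another center, with all mice kept in the same pathogen-free facility, and name no treatment for these cells, which were shaken from opened colons after incubation with EDTA and DTT. The knockout was present in every cell of the animal and not limited to the epithelium, and the source of the mice cannot be told apart from their genotype. The labels number the replicates without stating that each was a separate mouse, so the p-values measure the spread between these libraries.

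Enteroendocrine cells are scattered singly among absorptive and goblet cells, arise from the same crypt stem cells under the transcription factors Neurog3 and Neurod1, and store their products in dense granules with the granins Chga and Chgb. In the colon the main kinds are L cells, which make proglucagon peptides (Gcg), peptide YY (Pyy) and, in the distal colon, insulin-like peptide 5 (Insl5); enterochromaffin cells, which make serotonin through tryptophan hydroxylase (Tph1); and somatostatin (Sst) cells. Cholecystokinin (Cck) and secretin (Sct) are best known from the small intestine, where cells making several of these products are common.

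The stretches of Insl5, Gcg, Pyy and Sct printed next lie just before their annotated starts. They are shown because several of the members changed together between the genotypes. Sequences and windows came from RefSeq on GRCm38.p6, where all 10 members had a window of 250 bases before to 50 bases after a start. The letters CAGATG, or CATCTG on the other strand, form an E-box, the kind of site read by basic helix-loop-helix factors such as Neurod1. They occurred in windows of 4 of the 10 members (Gcg, Sct, Insl5 and Cck) and in 17.2% of 32851 windows of the same length. A member was counted if any of its windows held the letters, and Insl5, Pyy and Tph1 had 2 windows each. The percentage counts single windows, from 27025 genes, so it is not on the same footing as the member count. The same holds for the other letters searched. Capitals mark the E-box letters and TATAAA or TTTATA, the TATA box letters, which do not overlap the E-boxes shown. The coordinates are of GRCm38.p6, each of these 4 genes is on the minus strand, and each sequence reads 5′ to 3′ towards the start. TATA box letters occurred in windows of 4 members (Chga, Gcg, Sct and Insl5) and in 13.6% of all windows. For Insl5 they lay outside the bases printed, at this start and at another annotated start. Pyy is shown beside the other hormones of L cells, Gcg and Insl5, and held none of the letters searched.
Insl5, chr4:103026843-103026978: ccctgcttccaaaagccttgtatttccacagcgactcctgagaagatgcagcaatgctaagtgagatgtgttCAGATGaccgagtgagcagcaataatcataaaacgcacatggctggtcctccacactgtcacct
Gcg, chr2:62483654-62483903: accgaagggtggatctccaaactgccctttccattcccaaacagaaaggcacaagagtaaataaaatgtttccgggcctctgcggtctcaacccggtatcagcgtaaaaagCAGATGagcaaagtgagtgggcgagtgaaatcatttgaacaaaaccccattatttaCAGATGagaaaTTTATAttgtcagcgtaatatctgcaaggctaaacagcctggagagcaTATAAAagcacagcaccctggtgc
Pyy, chr11:102107833-102108026: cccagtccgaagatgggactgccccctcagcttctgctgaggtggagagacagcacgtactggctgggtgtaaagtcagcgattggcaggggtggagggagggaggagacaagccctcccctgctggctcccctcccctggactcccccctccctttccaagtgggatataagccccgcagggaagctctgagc
Sct, chr7:141279134-141279383: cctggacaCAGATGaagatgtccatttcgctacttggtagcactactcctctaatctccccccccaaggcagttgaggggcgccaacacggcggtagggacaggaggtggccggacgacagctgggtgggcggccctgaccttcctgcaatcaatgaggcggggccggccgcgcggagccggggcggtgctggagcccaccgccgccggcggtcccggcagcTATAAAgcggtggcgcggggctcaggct

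The letters TGACGT, or ACGTCA on the other strand, belong to the cAMP response element, and the overlapping pair spells TGACGTCA. They were found for 3 members (Chga, Chgb and Sst) and in 7.51% of all windows. Capitals mark them in the 30 bases around each match, with Chga and Chgb on the plus strand and Sst on the minus strand. All 3 matches lie before a RefSeq start. The stretches of Chgb and Sst lie inside the gene spans (GENCODE) given below, and that of Chga lies before its span. A match is a run of letters only and no binding was measured.
Chga, chr12:102554885-102554914: ggggcggtcctaTGACGTaatttcctgggt
Chgb, chr2:132781558-132781587: ggggctgctccgTGACGTCAgggctgagcg
Sst, chr16:23890875-23890904: cgcctccttggcTGACGTCAgagagagagt

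Some libraries stood apart before any of these genes was compared. Rhob, the deleted gene, was at 170.5 to 388.7 TPM in the 5 WT libraries and at 0.09, 0.10, 0.35 and 0.57 TPM in the RhoB-/- libraries of replicates 1 to 4. The library labelled RhoB-/- replicate 5 stood at 110.9 TPM of Rhob, which goes against its label. Mitochondrial genes took 17.5 to 26.5% of the WT libraries and 10.3 to 22.4% of the RhoB-/- libraries, with RhoB-/- replicate 3 lowest. That library also had the highest level of short against long transcripts, a median log2 difference of 0.36 between the 10% shortest and the 10% longest, where the WT libraries lay between -0.23 and 0.24. Results for the members are therefore also given without RhoB-/- replicates 3 and 5.

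Across the 10 genes, 6 fell in RhoB-/- IECs (Insl5, Pyy, Gcg, Chgb, Sst and Chga), none rose, and 4 did not pass the test in limma. At an unadjusted p below 0.05, limma gave 8 members lower and 0 higher, against 24.9% and 11.9% of all tested genes. Among all 12870 genes with a mean of at least 1 TPM, 13.5% were called lower and 7.73% higher by the same rule, a Benjamini-Hochberg adjusted p below 0.05 in limma on log2(TPM + 1). Values of the 2 genotypes did not overlap for 4 members, all lower in RhoB-/-, against 8.55% of all tested genes that lay lower without overlap and 5.97% that lay higher. The median log2 fold change of the members was -0.72 and that of all tested genes -0.13, and 9 of the 10 members had a lower mean in RhoB-/- mice. At the thresholds of the study's methods, an unadjusted p under 0.05 with over 1.5-fold change, 7 members were lower and 0 higher, against 8.33% and 6.37% of all tested genes. When each library was centred on its own median, 55.0% of the called genes were higher instead of 36.5%, and 5 members were still called lower, against 12.8% of all tested genes lower and 15.6% higher on that scale. In these bulk libraries fewer enteroendocrine cells and less RNA per cell cannot be told apart.

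**Figure D1:**
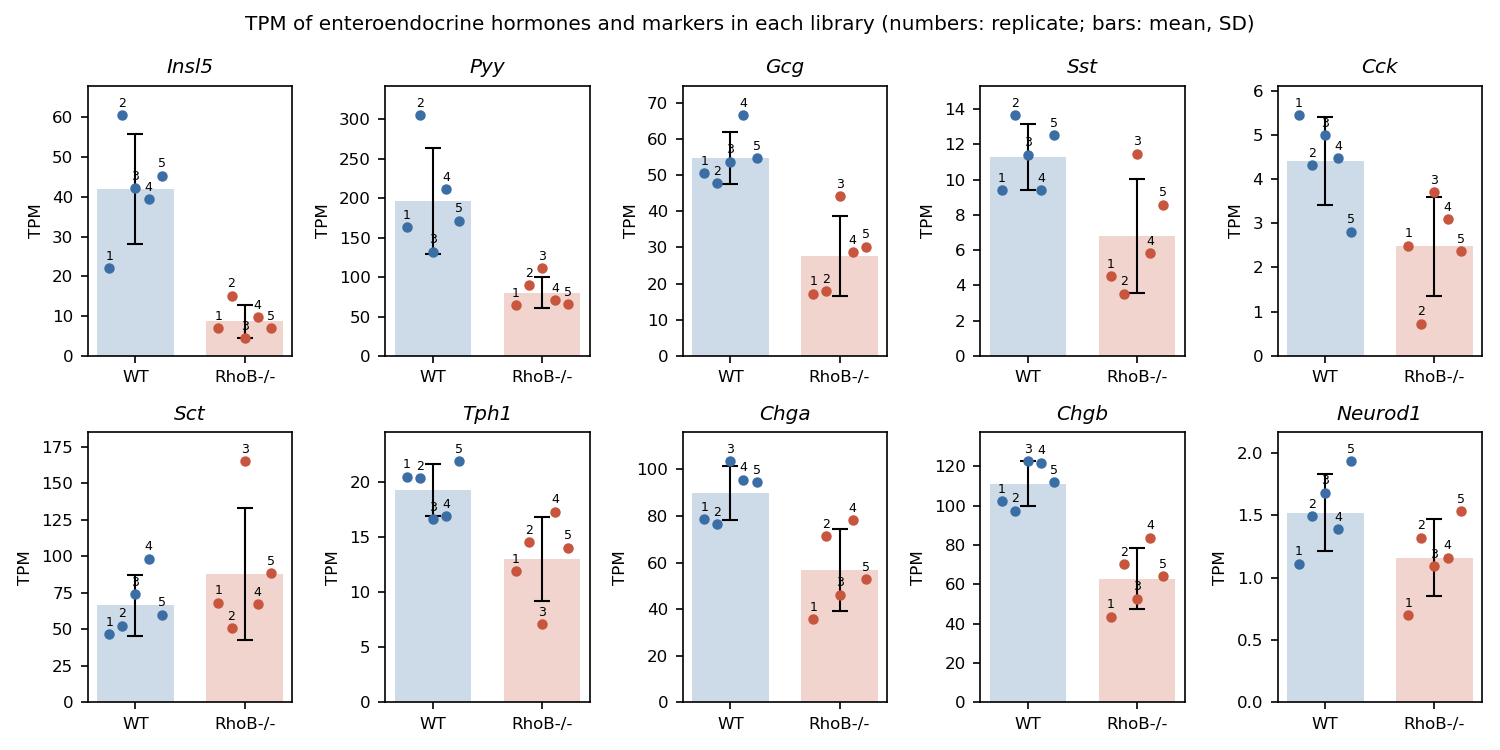
TPM of each of the 10 genes in 5 WT and 5 RhoB-/- libraries, with the replicate number above each point, a bar at the group mean and an error bar of 1 SD. Insl5, Pyy, Gcg and Chgb show no overlap between the genotypes, and Sct has its highest value, 165.0 TPM, in RhoB-/- replicate 3.

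Insl5, a relaxin-family peptide hormone of distal colonic L cells, changed most (ENSMUSG00000066090, chr4:103017872-103026842, GRCm38). It was at 22.0, 60.6, 42.2, 39.4 and 45.3 TPM in WT replicates 1 to 5 and at 7, 15.2, 4.43, 9.72 and 7.05 TPM in RhoB-/- replicates 1 to 5. Every RhoB-/- library was lower than every WT library, and replicate 2 was the highest library in both genotypes. The mean fell from 41.9 ± 13.8 to 8.68 ± 4.09 TPM (SD, n = 5 each), or to 20.7% of WT. The log2 fold change was -2.18 (SE 0.30, 95% interval -2.82 to -1.53, limma adjusted p = 0.000484), and the exact permutation test over all labellings of the libraries gave its smallest two-sided value, 0.00794. Only 0.21% of the tested genes had a fold change as low or lower, which placed Insl5 27th of 12870 from the lowest. Without RhoB-/- replicates 3 and 5 the log2 fold change was -1.87 with a limma adjusted p of 0.00405.

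Pyy encodes peptide YY, an appetite-lowering hormone that L cells release with the proglucagon peptides, and it was the most abundant of the 10 genes in WT IECs (ENSMUSG00000017311, chr11:102106676-102107832). It was at 163.3, 305.8, 132.45, 211.2 and 171.8 TPM in WT replicates 1 to 5 and at 64.7, 89.7, 111.4, 70.5 and 65.4 TPM in the RhoB-/- libraries. The groups did not overlap, although WT replicate 3 and RhoB-/- replicate 3 lay close to each other. The mean fell from 197 ± 67.0 to 80.3 ± 20.1 TPM (SD, n = 5 each), a log2 fold change of -1.26 (SE 0.22, 95% interval -1.74 to -0.77, limma adjusted p = 0.00266). Without RhoB-/- replicates 3 and 5 it was -1.34 (limma adjusted p = 0.00588).

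Gcg encodes proglucagon, which L cells cut into glucagon-like peptides that act on insulin release and on growth of the gut lining (ENSMUSG00000000394, chr2:62474530-62483650). Its levels in WT replicates 1 to 5 were 50.6, 47.8, 53.7, 66.6 and 54.65 TPM, and those in RhoB-/- replicates 1 to 5 were 17.2, 17.8, 44.1, 28.6 and 30.2 TPM. RhoB-/- replicate 3 came nearest to WT, below its lowest library, and replicates 1 and 2 were lowest. The mean fell from 54.7 ± 7.20 to 27.6 ± 11.0 TPM (SD, n = 5 each), a log2 fold change of -1.04 (SE 0.22, 95% interval -1.52 to -0.55, limma adjusted p = 0.00831). The exact permutation test gave 0.00794 for Gcg as it did for Insl5, Pyy and Chgb. Without RhoB-/- replicates 3 and 5 the log2 fold change of Gcg was -1.35 (limma adjusted p = 0.00117).

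Chga and Chgb, the acidic granin proteins of hormone granules and general markers of enteroendocrine cells, moved together from library to library. Chgb (ENSMUSG00000027350, chr2:132781278-132795079) was at 102.4, 97.6, 122.5, 122.0 and 111.9 TPM in WT replicates 1 to 5 and at 43.5, 70.4, 52.7, 83.7 and 64.2 TPM in RhoB-/- replicates 1 to 5. Chga (ENSMUSG00000021194, chr12:102554969-102565028) was at 78.7, 76.6, 103.4, 95.7 and 94.4 TPM in WT and at 35.9, 71.4, 46.3, 78.2 and 52.9 TPM in RhoB-/- libraries. In both genotypes the 2 genes put the 5 libraries in the same order, with replicate 3 highest and replicate 2 lowest in WT and replicate 4 highest and replicate 1 lowest in RhoB-/-. Over the 10 libraries Pearson's r between them was 0.972, and 0.974 after the genotype means were removed.

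Chgb fell from 111 ± 11.3 to 62.9 ± 15.6 TPM (SD, n = 5 each), to 56.5% of WT, with a log2 fold change of -0.84 (SE 0.16, limma adjusted p = 0.00443) and no overlap. Chga fell from 89.8 ± 11.6 to 56.9 ± 17.6 TPM, a log2 fold change of -0.69 (SE 0.19, limma adjusted p = 0.0267, exact permutation p = 0.0159), and RhoB-/- replicate 4 lay above the lowest WT library, replicate 2. The call of Chga was lost when some single libraries were left out, with a limma adjusted p of 0.0545, 0.0654 and 0.0548 without WT replicates 3, 4 and 5, and 0.0546 and 0.0571 without RhoB-/- replicates 1 and 5. With each library centred on its median the limma adjusted p of Chga was 0.0732. Without both RhoB-/- replicates 3 and 5 it was 0.0823 for Chga and 0.0172 for Chgb.

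Sst encodes somatostatin, which restrains the release of other gut hormones (ENSMUSG00000004366, chr16:23889573-23890958). It was at 9.42, 13.7, 11.4, 9.42 and 12.5 TPM in WT replicates 1 to 5 and at 4.53, 3.53, 11.5, 5.81 and 8.58 TPM in RhoB-/- replicates 1 to 5. Of the RhoB-/- libraries only replicate 3 reached the WT range. Sst fell from 11.3 ± 1.89 to 6.79 ± 3.24 TPM (SD, n = 5 each), a log2 fold change of -0.74 (SE 0.24, limma adjusted p = 0.0488, exact permutation p = 0.0397), which lies just inside the threshold. Its limma adjusted p was between 0.0501 and 0.112 when any library but RhoB-/- replicate 3 was left out, and 0.00725 without that library.

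Tph1, the first enzyme of serotonin synthesis in enterochromaffin cells (ENSMUSG00000040046, chr7:46644641-46672537), had a limma adjusted p of 0.05002, just above the threshold. It was at 20.5, 20.35, 16.6, 16.9 and 21.85 TPM in WT replicates 1 to 5 and at 11.9, 14.5, 7.09, 17.3 and 14.0 TPM in RhoB-/- replicates 1 to 5. All RhoB-/- libraries lay below the WT median, and replicate 4 alone lay within the WT range. Its means were 19.2 ± 2.35 and 13.0 ± 3.81 TPM (SD, n = 5 each), the log2 fold change was -0.58 (95% interval -0.99 to -0.16) and the exact permutation p was 0.0238. Leaving out RhoB-/- replicate 3 gave a limma adjusted p of 0.0367 and leaving out replicate 4 gave 0.0317. Mast cells also express Tph1, and the summed level of 10 mast cell markers was 13.3 to 19.6 TPM in WT and 16.0 to 49.3 TPM in RhoB-/- libraries. Of the 3 tested, 2 were called higher and none lower (2 and 1 at an unadjusted p below 0.05 in limma), against 7.73% of all tested genes higher. The 2 were Mcpt1 and Mcpt2, with WT means of 0.42 and 0.11 TPM. They passed the filter of 1 TPM only through the RhoB-/- libraries, so this count was tied to their being higher there. Kit, which is not particular to mast cells, made up most of the WT sum, and the other 9 markers summed to 1.24 to 1.91 TPM in WT and 5.03 to 35.4 TPM in RhoB-/- libraries. The part of mast cells in the level of Tph1 was not tested.

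Cck, whose hormone drives gallbladder emptying and satiety (ENSMUSG00000032532, chr9:121489824-121495694), was low in both genotypes. It was at 5.45, 4.32, 4.99, 4.47 and 2.81 TPM in WT replicates 1 to 5 and at 2.49, 0.73, 3.70, 3.10 and 2.37 TPM in RhoB-/- replicates 1 to 5. RhoB-/- replicates 3 and 4 lay above the lowest WT library. The log2 fold change was -0.69 (95% interval -1.23 to -0.14), the limma adjusted p 0.0683 and the exact permutation p 0.0238, so Cck was not called. Without RhoB-/- replicate 3 its limma adjusted p was 0.0313.

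Neurod1, a transcription factor that drives the endocrine program (ENSMUSG00000034701, chr2:79452521-79456751), was near the filter at 1.11, 1.49, 1.68, 1.39 and 1.93 TPM in WT replicates 1 to 5. In RhoB-/- replicates 1 to 5 it was at 0.70, 1.32, 1.09, 1.16 and 1.53 TPM. The ranges overlapped over most of their length, with a log2 fold change of -0.23 (95% interval -0.59 to 0.14, limma adjusted p = 0.356, exact permutation p = 0.111). Without RhoB-/- replicates 3 and 5 the log2 fold change of Neurod1 was -0.29 (limma adjusted p = 0.290), that of Sst -1.13 (limma adjusted p = 0.00255), that of Tph1 -0.38 (limma adjusted p = 0.0727) and that of Cck -0.87 (limma adjusted p = 0.0487). With those libraries left out 6 members were again called lower, Cck in place of Chga. Over all tested genes 2464 were then called lower and 758 higher, against 1734 and 995 with all libraries.

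Sct, which encodes secretin, the hormone that calls forth bicarbonate from the pancreas, was the only member with a higher mean in RhoB-/- IECs (ENSMUSG00000038580, chr7:141278330-141279133). It was at 46.8, 52.4, 74.0, 98.45 and 60.1 TPM in WT replicates 1 to 5 and at 68.2, 50.8, 165.0, 67.3 and 88.4 TPM in RhoB-/- replicates 1 to 5. Apart from replicate 3 the RhoB-/- libraries lay inside the WT range. Means were 66.4 ± 20.6 and 87.9 ± 45.1 TPM (SD, n = 5 each), with a log2 fold change of 0.33 (95% interval -0.30 to 0.96, limma adjusted p = 0.433, exact permutation p = 0.405). Without RhoB-/- replicates 3 and 5 the direction turned, to -0.06 (limma adjusted p = 0.862).

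The members did not differ between the genotypes by the same amount. When log2(TPM + 1) of Chga was subtracted in each library, a comparison chosen after the values were seen, Insl5 fell by 1.48 more than Chga (95% interval -2.08 to -0.89, limma adjusted p = 0.000406, exact permutation p = 0.00794). On this scale 0.381% of 12869 genes were called lower and 25.4% higher. Sct was higher by 1.02 relative to Chga (95% interval 0.34 to 1.70, limma adjusted p = 0.0261), a direction shared by many genes, and its exact permutation p was 0.0635. This call for Sct was lost without RhoB-/- replicate 1, 3 or 5, at limma adjusted p of 0.0782, 0.110 and 0.0552. Without both RhoB-/- replicates 3 and 5 the difference of Sct from Chga was 0.54 (limma adjusted p = 0.383). Insl5 was called lower than Chga in all 19 alternatives. The other 7 members differed from Chga by between -0.56 (Pyy, 95% interval -1.20 to 0.08, limma adjusted p = 0.154) and 0.47 (Neurod1, 95% interval -0.25 to 1.18, limma adjusted p = 0.279), and none was called in limma. Their exact permutation p, which is not adjusted, was 0.0397 for Neurod1, 0.0476 for Chgb (difference -0.15) and at least 0.167 for the rest.

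**Figure D2:**
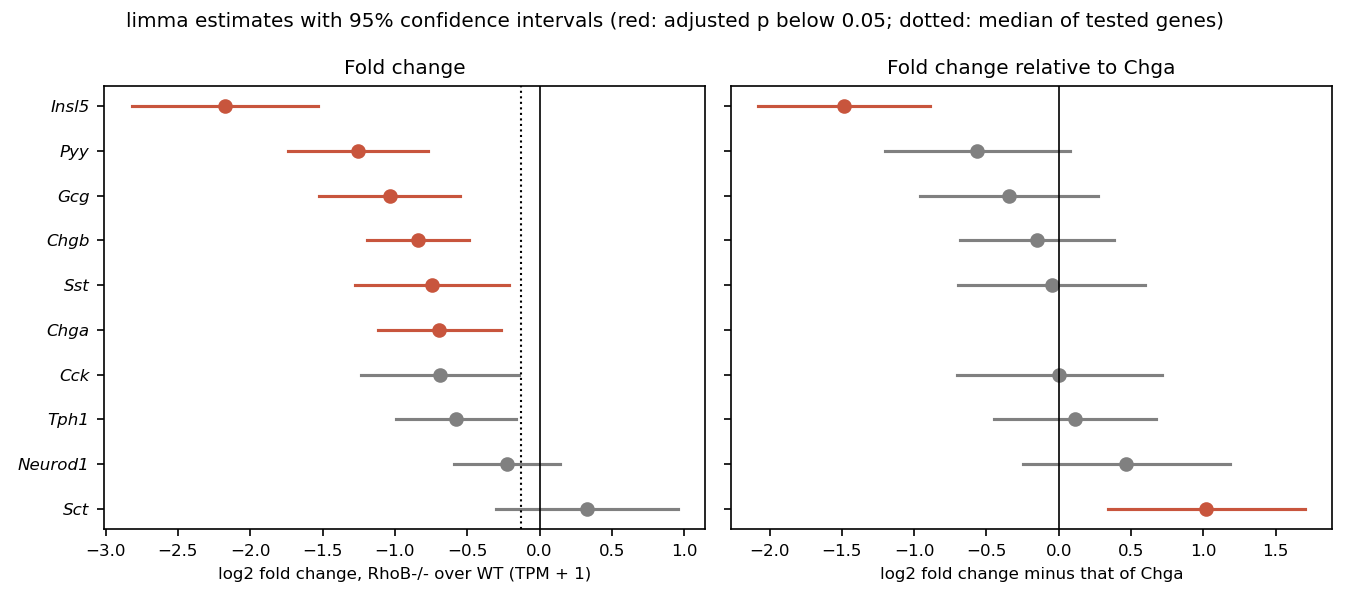
Left, log2 fold change of each gene in RhoB-/- over WT IECs on the log2(TPM + 1) scale; right, the same change minus that of Chga. Points are limma estimates with 95% confidence intervals, red at an adjusted p below 0.05, and the dotted line is the median of all tested genes, -0.13; Insl5 lies farthest to the left in both panels and Sct farthest to the right.

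The make-up of the summed hormone and marker RNA differed between the genotypes. The 10 genes together came to 500.2 to 680.6 TPM in the WT libraries and 256.1 to 447.2 TPM in the RhoB-/- libraries, which did not overlap. Pyy made up 32.5 ± 7.80% of this sum in WT and 23.1 ± 3.48% in RhoB-/- libraries, and Insl5 6.91 ± 1.77% and 2.60 ± 1.28% (SD, n = 5 each). Sct made up 11.1 ± 2.87% in WT and 24.7 ± 8.46% in RhoB-/- libraries. The shares of Chga, 15.2% and 16.6%, and of Chgb, 18.9% and 18.4%, were close in the 2 genotypes. These shares are given as a description.

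Among the RhoB-/- libraries the members were not high or low together. Replicate 3 was the highest RhoB-/- library for Gcg, Pyy, Sct, Cck and Sst and the lowest for Insl5 and Tph1. Replicate 1 was the lowest for Chga, Chgb, Neurod1, Gcg and Pyy. With the genotype means removed, Gcg varied with Sst (r = 0.780) and with Sct (r = 0.851), and Sct varied opposite to Tph1 (r = -0.815), over 10 libraries that share the library make-up described above. The 5 genes highest in replicate 3 have transcripts of 555 to 1088 bases, that of Insl5 has 695 bases and that of Tph1 4562 bases, and this library had the highest level of short transcripts. With a trend over transcript length removed from each library, 8 members were called lower, the 6 above with Tph1 (limma adjusted p = 0.0419) and Cck (limma adjusted p = 0.0489). Over all tested genes 1858 were then called lower and 1060 higher, against 1734 and 995 without this step. The spread of most members was wider in RhoB-/- than in WT libraries, with a coefficient of variation of 39.9% against 13.2% for Gcg and 30.9% against 12.9% for Chga, and Pyy was the exception.

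**Figure D3:**
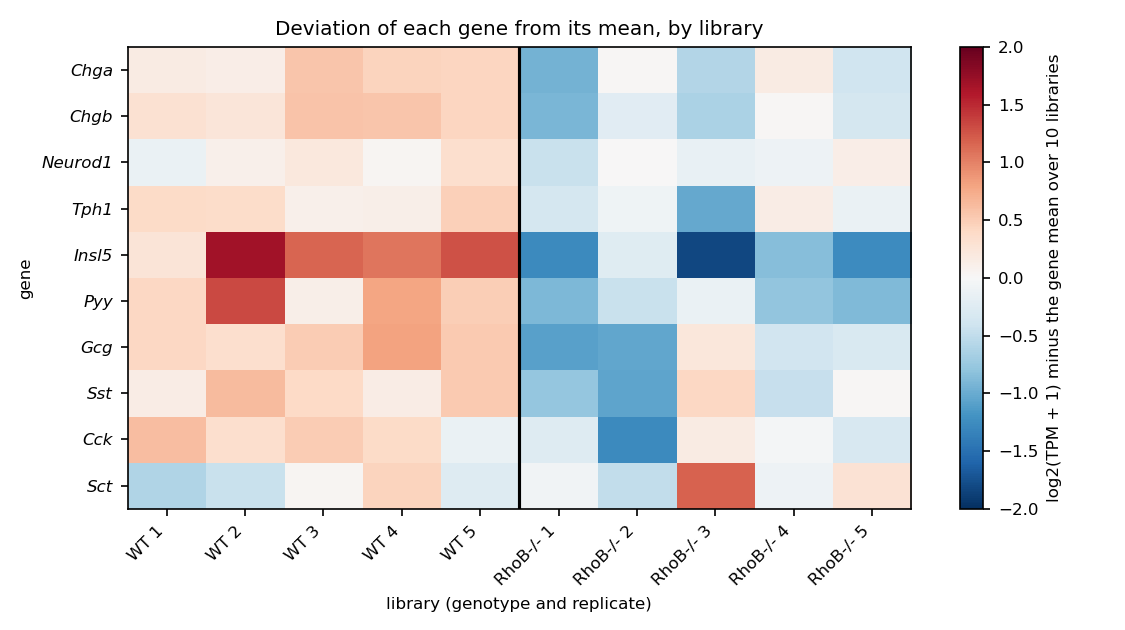
Deviation of log2(TPM + 1) of each gene from its mean over the 10 libraries (colour scale, log2 units), with WT libraries left and RhoB-/- libraries right of the black line. Insl5 is red in all WT and blue in all RhoB-/- libraries, and RhoB-/- replicate 3 is red for Sct and blue for Insl5 and Tph1.

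Genes whose levels followed a member most closely over the 10 libraries were looked up among all tested genes other than the members. The correlations include the shared genotype difference. A fellow member can be closer still, as Chgb was to Chga (r = 0.972). Insl5 was most like Rasd2 (r = 0.983), Sfxn5 (r = 0.975) and Klb (r = 0.974). Pyy was most like Lrig1 (r = 0.981), Fgfr3 (r = 0.979) and Ttr (r = 0.978). Chga was most like Tsku (r = 0.945), Cbr3 (r = 0.944) and Hmox1 (r = 0.942), and Sct like Fibp (r = 0.945), Med8 (r = 0.925) and Gcat (r = 0.923).

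Insl5 is known to be made mainly towards the distal end of the colon, so genes that mark that position were measured beside it. Hoxb13, a homeobox gene of the distal colon named here after its values were seen, was at 50.02, 135.0, 67.15, 79.4 and 75.0 TPM in WT replicates 1 to 5 and at 22.4, 35.1, 17.75, 26.5 and 14.0 TPM in RhoB-/- replicates 1 to 5. As with Insl5, the groups did not overlap, WT replicate 1 was the lowest WT library, and replicate 2 was the highest in both genotypes. The lowest RhoB-/- library differed, replicate 3 for Insl5 and replicate 5 for Hoxb13, and so did the order of the remaining WT libraries. The log2 fold change of Hoxb13 was -1.76 (limma adjusted p = 0.00113), and 2 of the 4 tested genes of 8 posterior position genes were called lower and none higher, and 3 and 0 at an unadjusted p below 0.05 in limma. Over all tested genes 13.5% were called lower, or 24.9% at the unadjusted p. The summed level of the posterior position genes was 73.85 to 180.2 TPM in WT and 20.6 to 50 TPM in RhoB-/- libraries. The part of the stretch of colon sampled in the levels of Insl5 and the other hormones was not tested.

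Markers of other cells also moved with genotype. The counts of called markers stand beside 13.5% lower and 7.73% higher over all tested genes. At an unadjusted p below 0.05 in limma those shares were 24.9% and 11.9%. Summed goblet cell markers were at 14032 to 16170 TPM in WT and 18169 to 21370 TPM in RhoB-/- libraries (4 of 10 called higher and none lower, 5 and 1 at an unadjusted p below 0.05 in limma), and absorptive colonocyte markers at 14359 to 21140 and 17394 to 31731 TPM (6 of 10 higher and none lower, and also 6 and 0 at an unadjusted p). Tuft cell markers summed to 10.9 to 29.3 and 29.8 to 43.5 TPM, with 5 of the 7 tested called higher. Leukocyte markers, with 5 of 5 tested called higher, summed to 6.72 to 10.9 TPM in WT and 21.1 to 39.6 TPM in RhoB-/- libraries, and mesenchyme markers to 4.23 to 6.29 and 7.24 to 37.1 TPM, with 1 of the 3 tested higher. Of the leukocyte markers Cd68 had a WT mean of 0.99 TPM, under the filter. Both upper ends were RhoB-/- replicate 5, the library with Rhob at 110.9 TPM, where Dcn of the mesenchyme markers was at 24.5 TPM. The RhoB-/- medians were 24.0 TPM for leukocyte and 8.09 TPM for mesenchyme markers. TPM is a share of the library, and the part of these other cells in the levels of the members was not tested. Of 15 heat shock and immediate-early genes, which respond to handling of tissue, 5 fell and none rose (6 and 0 at an unadjusted p below 0.05 in limma), with a summed level of 4902 to 8233 TPM in WT and 3268 to 5030 TPM in RhoB-/- libraries. The 5 that fell, all of them heat shock genes, summed to 2185 to 3091 TPM in WT and only 276 to 438 TPM in RhoB-/- libraries, with Hspa1a at a mean of 842 TPM in WT and 54.8 TPM in RhoB-/- IECs. These 5 genes were picked because they fell, so a lower sum in RhoB-/- libraries follows from the choice. The sum of all 15 genes overlapped between the genotypes. The part of tissue handling in the levels of the members was not tested. Markers of enteric neurons and glia, which also express several of these peptides, summed to 1.79 to 2.88 TPM in WT and 1.41 to 2.86 TPM in RhoB-/- libraries, with Vip listed at 0 in all 10. Of the pancreas markers Ins1, Ins2, Prss2, Cela3b, Pnlip and Cpa1 were listed at 0 in all 10 libraries, and the only tested gene of that list, Cela1, was called lower.

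The wider enteroendocrine gene set was read from 7 lists of 133 genes: other gut hormones, transcription factors, granule and processing proteins, serotonin genes, nutrient receptors, hormone receptors and peptidases. Of the 56 genes that passed the filter, 16 (28.6%) fell and 5 (8.93%) rose, against 13.5% and 7.73% of all tested genes, and their median log2 fold change was -0.21 against -0.13. The counts of each list below stand beside the same shares of all tested genes. At an unadjusted p below 0.05 in limma those shares were 24.9% lower and 11.9% higher. With each library centred on its median, 12 fell and 8 rose, where 12.8% of all tested genes fell and 15.6% rose, so the count that rose was near the background.

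Among 17 other gut hormones, 7 passed the filter, 2 fell and none rose (2 and 0 at an unadjusted p below 0.05 in limma). The median log2 fold change of these 7 was 0.13, against -0.13 for all tested genes. Ppy, which encodes pancreatic polypeptide of the same family as Pyy and lies close to it on chromosome 11, was at 3.70, 9.25, 6.41, 6.79 and 6.30 TPM in WT replicates 1 to 5 and at 2.52, 2.60, 3.39, 4 and 1.72 TPM in RhoB-/- replicates 1 to 5. Only RhoB-/- replicate 4 reached the lowest WT library. Its log2 fold change was -0.95 (limma adjusted p = 0.00982). Iapp, the amylin gene, fell from 2.51 ± 1.07 to 0.84 ± 0.57 TPM (log2 fold change -0.93, limma adjusted p = 0.0297), a call lost without any of WT replicates 1, 4 and 5 or RhoB-/- replicates 1 and 5, where the limma adjusted p was 0.0517 to 0.0787. The RhoB-/- mean of Iapp was under the filter of 1 TPM, which it passed through the WT libraries. The most abundant of the list, Adm, Nts and Tac1, were not called, with Nts, neurotensin, at 13.9 ± 2.94 TPM in WT libraries and 16.1 ± 4.49 TPM in RhoB-/- libraries. Gip and Gast, hormones of the upper gut, were listed at 0 in all 10 libraries, as were Cartpt, Grp, Galp and Npw.

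Of 24 transcription factors of the enteroendocrine lineage, only 6 passed the filter, of which 2 fell and none rose (2 and 1 at an unadjusted p below 0.05 in limma). Sox4, a factor of early endocrine progenitors that other crypt cells also express, was at 10.4, 12.2, 8.27, 11.2 and 8.82 TPM in WT replicates 1 to 5 and at 4.47, 4.21, 5.20, 4.31 and 3.78 TPM in RhoB-/- replicates 1 to 5. The groups lay well apart and the log2 fold change was -1.04 (limma adjusted p = 0.000173). Foxa2, a forkhead factor known to act in L cells, fell by 0.84 on the log2 scale (limma adjusted p = 0.00954). Foxa1 and Atoh1, the latter shared with goblet cells, were the most abundant at 32.1 and 30.5 TPM in WT and at 29.2 and 31.9 TPM in RhoB-/- libraries, and neither was called.

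Genes of these lists under the filter were read without a fit, since their levels are low. There were 64 above 0 in any library, of which 53 had a lower mean in RhoB-/- libraries, against 53.8% of the 15244 such genes in the table. Values did not overlap for 10 that were lower and 1 that was higher, against 1.59% and 1.26% of such genes. The 10 were Rfx6, Lmx1a, Insm1, Scgn, Cplx2, Syt13, Piezo2, Olfr78, Gpr119 and Sstr2, and the 1 was Casr, all named after their values were seen. Insm1, a zinc finger factor of endocrine precursors, was at 0.92 to 1.71 TPM in WT and 0.40 to 0.75 TPM in RhoB-/- libraries. All 18 transcription factors under the filter, Insm1, Rfx6 and Lmx1a among them, had a lower mean in RhoB-/- libraries.

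Of 27 granin, prohormone processing and granule genes, 17 passed the filter, 5 fell and 2 rose. Scg5, the chaperone of the prohormone convertase Pcsk2, was at 1.97, 2.07, 1.90, 2.25 and 2.54 TPM in WT replicates 1 to 5 and at 1.01, 0.95, 1.05, 0.82 and 1.16 TPM in RhoB-/- replicates 1 to 5. The groups did not overlap and the log2 fold change was -0.65 (limma adjusted p = 0.00790). The RhoB-/- mean of Scg5 was 0.998 TPM, under the filter, which it passed through the WT libraries. Ptprn2, a granule membrane protein, fell by 0.51 on the log2 scale (limma adjusted p = 0.0149). Resp18, Snap25 and Cpe fell by 0.78, 0.61 and 0.53 on the log2 scale, with limma adjusted p of 0.0396, 0.0401 and 0.0399. Rab27a, a small GTPase of granule transport, rose by 0.36 on the log2 scale (limma adjusted p = 0.0411). Several of these calls rested on single libraries. The call of Resp18 was lost without any of WT replicates 2, 3, 4 and 5 or RhoB-/- replicates 1, 3 and 5 (limma adjusted p from 0.0502 to 0.094), and that of Snap25 without any of WT replicates 1, 3, 4 and 5 or RhoB-/- replicates 1, 3 and 5 (limma adjusted p from 0.054 to 0.103). That of Cpe was lost without any library but WT replicates 1 and 3 (limma adjusted p from 0.0544 to 0.101), and that of Rab27a without any library but WT replicates 1 and 2 and RhoB-/- replicate 3 (limma adjusted p from 0.0549 to 0.106). Pam, the amidating enzyme and the most abundant gene of the list, was at 39.4 ± 7.57 TPM in WT libraries and 29.3 ± 7.29 TPM in RhoB-/- libraries (SD, n = 5 each) and was not called (limma adjusted p = 0.0998). Syt7, a calcium sensor of granule release, was at 14.1 ± 4.02 and 15.1 ± 2.79 TPM and was not called either.

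Of 11 genes of serotonin synthesis, storage, uptake and breakdown, 8 passed the filter, 3 fell and 1 rose. Ddc, the decarboxylase that follows Tph1 in serotonin synthesis and is also used elsewhere in the gut lining, was at 36.85, 58.9, 44.7, 52.1 and 48.0 TPM in WT replicates 1 to 5 and at 15.1, 19.3, 17.3, 20.03 and 15.2 TPM in RhoB-/- replicates 1 to 5. The highest RhoB-/- library was below the lowest WT library, and the log2 fold change was -1.41 (SE 0.13, limma adjusted p = 3.13e-05). Slc6a4, the serotonin transporter by which epithelial cells take serotonin up, was at 4.23, 7.33, 3.36, 5.13 and 4.29 TPM in WT and at 1.40, 1.30, 1.49, 1.41 and 1.27 TPM in RhoB-/- replicates 1 to 5. These groups were likewise separate, with a log2 fold change of -1.27 (limma adjusted p = 0.000381). Maob, a monoamine oxidase, fell from 17.1 ± 3.26 to 7.81 ± 0.70 TPM (log2 fold change -1.02, limma adjusted p = 0.000287). Gch1, which makes the pterin cofactor of tryptophan hydroxylase, rose from 15.2 ± 1.73 to 25.8 ± 6.01 TPM (SD, n = 5 each, log2 fold change 0.71, limma adjusted p = 0.00634). The most abundant genes of the list, Maoa, Qdpr and Pts, were not called, and Maoa was at 257 ± 36.7 TPM in WT libraries and 327 ± 36.3 TPM in RhoB-/- libraries.

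Of 19 receptors and channels by which enteroendocrine cells sense nutrients and microbial metabolites, 7 passed the filter, 2 fell and none rose (2 and 0 at an unadjusted p below 0.05 in limma). The median log2 fold change of these 7 was -0.09, against -0.13 for all tested genes. Ffar2, a receptor of short-chain fatty acids that L cells carry, was at 9.43, 9.66, 9.77, 9.61 and 10.6 TPM in WT replicates 1 to 5 and at 3.65, 5.17, 6.78, 8.16 and 4.11 TPM in RhoB-/- replicates 1 to 5. The WT libraries were nearly level and all RhoB-/- libraries lay below them, with a log2 fold change of -0.76 (limma adjusted p = 0.00980). Cacna1a, a calcium channel subunit, fell from 2.43 ± 0.52 to 1.02 ± 0.38 TPM (log2 fold change -0.77, limma adjusted p = 0.0123). Gucy2c and Ffar4 had limma adjusted p of 0.652 and 0.915 and means of 95.7 and 14.7 TPM in WT and of 102 and 15.8 TPM in RhoB-/- libraries.

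Of 26 receptors of the members' hormones only 3 passed the filter, 2 fell and none rose (3 and 0 at an unadjusted p below 0.05 in limma). Over all tested genes 13.5% fell, or 24.9% at the unadjusted p. Npy1r, a receptor of the peptide YY and neuropeptide Y family, was at 1.08, 3.72, 1.04, 1.90 and 1.18 TPM in WT replicates 1 to 5 and at 0.22, 0.34, 0.15, 0.22 and 0.18 TPM in RhoB-/- replicates 1 to 5. The groups did not overlap and the log2 fold change was -1.11 (limma adjusted p = 0.00955). The mean of Npy1r was 1.78 TPM in WT and 0.22 TPM in RhoB-/- libraries. It passed the filter of 1 TPM only through the WT libraries, so its place in this count was tied to its being lower in RhoB-/-. Htr4, a serotonin receptor, fell from 4.99 ± 1.38 to 2.41 ± 0.34 TPM (log2 fold change -0.79, limma adjusted p = 0.00638). Sstr1, a somatostatin receptor, was at 11.3 ± 3.39 and 6.24 ± 3.24 TPM and was not called (limma adjusted p = 0.0520).

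Of 9 peptidases that cut peptide hormones, 8 passed the filter, none fell and 2 rose (1 and 3 at an unadjusted p below 0.05 in limma). Enpep, an aminopeptidase, was at 0.47, 1.20, 2.80, 1.72 and 1.83 TPM in WT replicates 1 to 5 and at 3.16, 4.78, 4.65, 3.69 and 8.84 TPM in RhoB-/- replicates 1 to 5. All RhoB-/- libraries lay above WT, and the log2 fold change was 1.21 (limma adjusted p = 0.0106). Dpp9 rose by 0.34 on the log2 scale (limma adjusted p = 0.0338), a call lost without any of WT replicates 1, 3, 4 and 5 or RhoB-/- replicates 1, 4 and 5, where the limma adjusted p was 0.0528 to 0.0786. Dpp4, which inactivates glucagon-like peptide and trims peptide YY and is named here after its values were seen, was at 9.50 ± 1.79 TPM in WT libraries and 6.79 ± 1.96 TPM in RhoB-/- libraries and was not called (limma adjusted p = 0.0850). Ece1 and Dpp8, with Dpp9 the most abundant of the list, were not called.

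**Figure D4:**
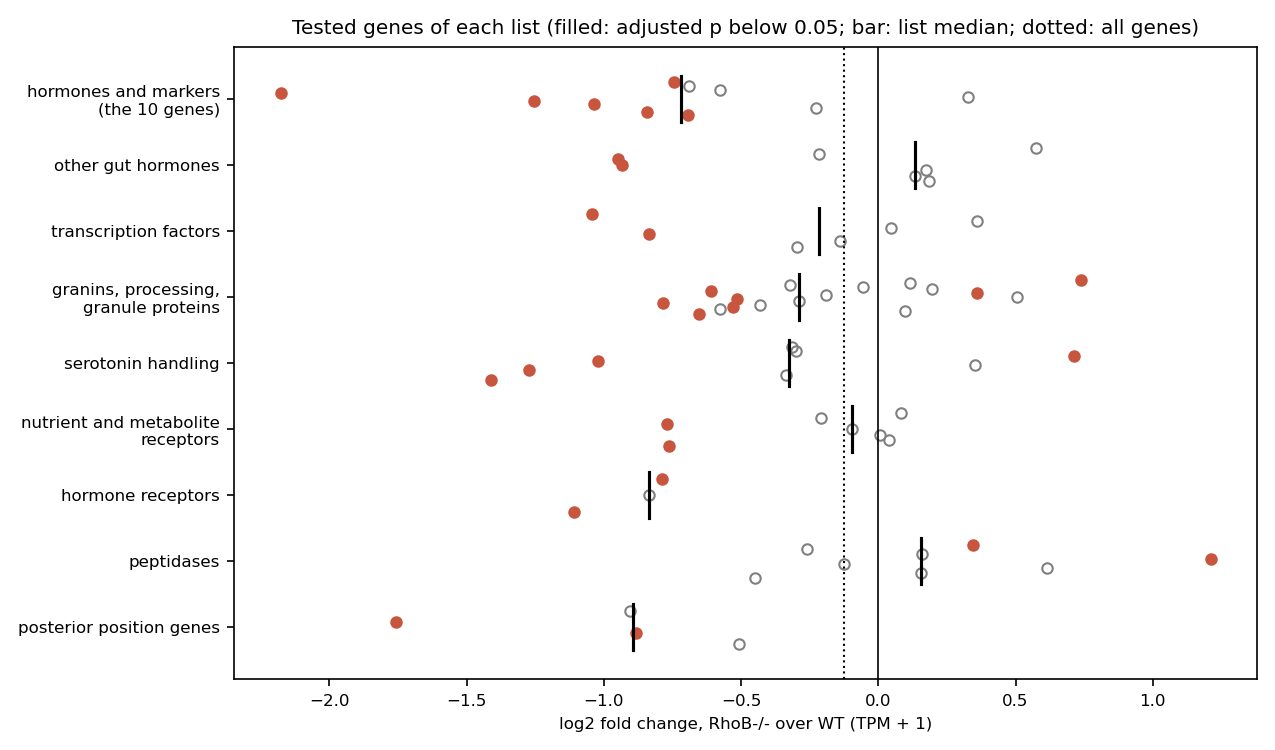
Log2 fold change in RhoB-/- over WT IECs (log2(TPM + 1) scale) of every tested gene in the 10 hormones and markers, the 7 enteroendocrine lists and the posterior position genes; filled points have an adjusted p below 0.05, black bars are list medians and the dotted line is the median of all tested genes. Filled points lie mostly left of the line, and the peptidases have 2 filled points to its right.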

How the data were processed

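RNA of colon IECs from 5 WT and 5 RhoB-/- libraries was analysed, grouped by the genotype in the sample labels. The authors deposited one table of TPM values per gene and library, rounded to 2 decimals. They sequenced paired-end reads, and the submitters' processing notes name HISAT2, StringTie, RSEM, edgeR and the build GRCm38.p6; the annotation release is not given in the sources used here. TPM keeps no record of depth, so counting error is unknown and no count test was run. Genes with a mean of at least 1 TPM (12870) were compared on log2(TPM + 1) with limma 3.58.1 in R 4.3.3, with an intensity trend and Benjamini-Hochberg adjustment over all of them, on the 10 libraries with no covariate; fold changes on this scale understate changes of low genes. Single values were also compared with a two-sided exact permutation test over all labellings of the libraries, whose smallest p is 0.00794. The script was tested on simulated data. Gene positions and lengths came from GENCODE M21 (55141 of 55487 identifiers found).

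The members and the gene lists were chosen with earlier results of these data known. All 10 members are named. Each other enteroendocrine list gives up to 4 called genes per direction, those with the largest fold change, and its 3 highest in mean TPM. For 4 members, the 3 tested genes outside the members with the highest correlation are named. Some genes of the lists are counted but not reported here by name. Alternatives were other pseudocounts and filters, median centring, quantile normalization, mitochondrial genes left out, no intensity trend, the replicate number as a block, each library left out in turn and the thresholds of the study's methods (an unadjusted p under 0.05 with over 1.5-fold change). Removal of a length trend, omission of RhoB-/- replicates 3 and 5 and the difference from Chga were added after seeing the data.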

Additional observations from a re-analysis of the deposited data

Results flagged for a closer look

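Over 100 groups of 5 libraries, for the genes named with values, 3 held a library set well off from the rest of its group, and about 5 such groups would come by chance. Rhob reached 110.87 TPM in 1 RhoB-/- library, that labelled replicate 5. Enpep was at 8.84 TPM, its highest value, in that library too. Qdpr, a pterin-recycling enzyme, was at 87.83 TPM in WT replicate 1, the lowest of that group. No library of the 10 hormones and markers was marked in this way.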

How the results depend on the processing

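Insl5, Pyy, Gcg and Chgb were called lower in all 21 alternatives, with limma adjusted p of at most 0.00409, 0.012, 0.0286 and 0.0172. Chga was called in 13 of 21 (limma adjusted p 0.0134 to 0.0823), Sst in 8 of 21 (0.00255 to 0.118), Tph1 in 8 of 21 (0.0317 to 0.154), Cck in 4 of 20 (0.0313 to 0.157) and Sct and Neurod1 in 0. The number of members called lower was 4 to 8 when single libraries were left out, with 0 higher each time, and the members without overlap were 4 to 6 lower and 0 higher. The cause of these changes was not tested. Over all tested genes the number lower was 1104 at a mean of 5 TPM (fewer genes tested), 3729 without mitochondrial genes, 1072 at the study's thresholds and 853 to 2868 without single libraries (950 and 853 without WT replicates 2 and 4, and 985, 2868 and 1116 without RhoB-/- replicates 1, 3 and 5). The number higher was 2010 after median centring, 1587 after quantile normalization and 719 to 1154 without single libraries. In the 7 enteroendocrine lists the number lower was 8 at a mean of 5 TPM, 29 without mitochondrial genes and 11 to 21 without single libraries, and the number higher was 8 after centring and 3 to 6 without single libraries (3 without WT replicates 4 or 5 or RhoB-/- replicates 1, 4 or 5). Same-numbered WT and RhoB-/- libraries did not deviate together (r from -0.0874 to 0.072, 1 of 5 WT libraries closest to its own number). The replicate block gave 1059 genes lower and 836 higher, 3 list genes higher, and 6 members lower and 0 higher, with Sst at a limma adjusted p of 0.0509 and Tph1 at 0.0473. Signs turned for values that were not called: Sct to -0.0571, Nts to -0.0169, Gucy2c to -0.062, Tac1 to -0.0947 and Atoh1 to -0.0258 without RhoB-/- replicates 3 and 5, and Atoh1 to -0.0285 and Ffar4 to -0.033 without mitochondrial genes. Without single libraries the log2 fold change was -0.0917 to 0.182 for Ffar4, -0.0717 to 0.110 for Atoh1 and -0.179 to 0.533 for Tac1. The difference from Chga was -0.184 to 0.331 for Cck, -0.304 to 0.216 for Sst and -0.0176 to 0.240 for Tph1 without single libraries. That of Cck was also -0.234 and -0.105 at pseudocounts of 0.1 and 0.5, -0.0257 without mitochondrial genes, -0.0321 with the length trend removed and -0.272 without RhoB-/- replicates 3 and 5, and that of Sst was 0.125 after quantile normalization.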
